A study of Mus musculus with 12 samples.

Results

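The mesenchymal homeobox genes Msx1, Msx2, Meox1, Meox2, Prrx1 and Prrx2 were examined in the early mouse heart. Members were chosen by gene symbol in the annotation of the array, and each was read from the probe that was brightest on average over the 12 arrays. Of the 6 genes, 5 had a probe, with 11 probes among the 45281 on the array, and 5 of the 19057 genes measured. Prrx2 had no probe in this annotation and is not analysed here. Of these, 3 (Msx1, Meox1 and Prrx1) exceeded background on every array of 1 or more of the groups compared.

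RNA came from dissected mouse embryos and was hybridised to Illumina Mouse WG-6 v2 bead arrays. The 4 groups were the atrioventricular canal (AVC), where the endocardial cushions and later the valves form, and the ventricle (labelled LV), each at embryonic day 9 and day 10, and are called AVC E9, AVC E10, LV E9 and LV E10. No strain, genotype or treatment is given in the sources used here, and each group had 3 arrays. Neither do these sources say whether the replicates came from separate litters or pools, so the p-values reflect only how much these samples varied, which may be technical variation.

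The homeodomain is a DNA-binding fold, and these genes are known for their expression in embryonic mesenchyme. Msx1 and Msx2 are targets of BMP signalling and act in the endocardial-to-mesenchymal transition (endoMT) of the atrioventricular cushions. Meox1 and Meox2 are best known from the somites and the muscle and skeleton that derive from them. Prrx1 and Prrx2 mark the mesenchyme of limb and face and are also expressed in cushions and vessel walls.

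Promoters are shown for the Msx pair, since only one of these paralogues was measured above background, and for Prrx1. The RefSeq promoter set used here (build GRCm38.p6) has an entry for 5 of the 6 members, and Meox1 is not among them. Each line gives the 250 bases before the start on the strand of the gene. The Msx1 window is chr5:37824586-37824835, that of Msx2 chr13:53472781-53473030 and that of Prrx1 chr1:163313651-163313900, all on the minus strand. Capitals mark CCAAT and TAATTA, a core recognised by many homeodomains, on either strand.

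Msx1: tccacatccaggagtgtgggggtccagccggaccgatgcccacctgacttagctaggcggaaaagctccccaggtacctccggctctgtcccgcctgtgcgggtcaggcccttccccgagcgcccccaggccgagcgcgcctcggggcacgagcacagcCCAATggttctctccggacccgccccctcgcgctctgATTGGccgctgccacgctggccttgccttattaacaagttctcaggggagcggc
Msx2: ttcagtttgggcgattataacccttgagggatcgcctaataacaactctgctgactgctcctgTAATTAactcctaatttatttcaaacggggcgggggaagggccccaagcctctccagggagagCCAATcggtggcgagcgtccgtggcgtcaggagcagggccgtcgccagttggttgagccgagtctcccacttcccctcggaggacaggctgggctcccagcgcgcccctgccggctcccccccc
Prrx1: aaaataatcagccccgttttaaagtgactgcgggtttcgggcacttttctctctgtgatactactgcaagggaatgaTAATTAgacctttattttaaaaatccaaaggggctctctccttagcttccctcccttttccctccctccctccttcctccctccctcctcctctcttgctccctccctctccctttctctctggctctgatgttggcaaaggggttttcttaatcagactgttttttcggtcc

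CCAAT occurred 2 times in the Msx1 window, in opposite orientations, and 1 time in that of Msx2, and 37.4% of all 32851 promoters of 300 bases (50 bases after the start included) held it on either strand. TAATTA, which is its own reverse complement, occurred 1 time in each of the windows of Msx2 and Prrx1 and in 5.29% of all promoters. TAATTG (8.0% of promoters) and GGCGCC (11.9%) were found in none of the 5 members, TATAAA (13.6%) only in Meox2, and CANNTG (72.3%) in Msx1, Msx2 and Meox2. These matches describe letters only, and no match overlapped another motif in the windows printed.

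Values are intensities on a linear scale after background subtraction, so they can be negative. An array's background limit is the size of its most negative value, which was 22.4 to 29.6, and 36.7% to 41.0% of the probes of an array lay above it. For 3 arrays the closest array lay in another group, over the 8340 genes above background on all 12 arrays. AVC E10 replicate 1 and AVC E9 replicate 2 were closest to each other (r = 0.979), and LV E10 replicate 1 was closest to LV E9 replicate 2 (r = 0.969). Results that change without these arrays are given both ways. Regional genes were read as a check of the tissue labels. Tbx2, a repressor of chamber genes in canal myocardium, read 202 to 341 in AVC E9 and 9.99 to 30.6 in LV E9, where 1 of 3 arrays passed background (limma adjusted p = 0.0324). Nppa, the chamber gene for atrial natriuretic peptide, was lower in the AVC at E9 (log2 difference -1.73, limma adjusted p = 0.0144).

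Msx1 was above background on all 12 arrays. It was high in the AVC at both ages and low in the LV. In AVC E9 its intensity was 887, 1047 and 633 on replicates 1, 2 and 3 (856 ± 209, SD, n = 3), and in LV E9 it was 195, 184 and 240 (206 ± 29.8, SD, n = 3). In AVC E10 it was 1148, 802 and 968 (973 ± 173, SD, n = 3), and in LV E10 it was 124, 74.2 and 90.7 (96.3 ± 25.4, SD, n = 3). The lowest AVC array stood far above the highest LV array at each age. The share of all genes whose arrays do not overlap between groups is not given here. Such separation is therefore only described, for Msx1 and for the other members.

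Between tissues, Msx1 was 4.08-fold higher in the AVC at E9 (95% interval 2.77 to 6.03, log2 difference 2.03 ± 0.25 SE, limma adjusted p = 0.0142). At E10 it was 10.2-fold higher (6.92 to 15.1, log2 difference 3.35 ± 0.25 SE, limma adjusted p = 0.00102). Averaged over both ages the difference was 6.46-fold (4.90 to 8.51, limma adjusted p = 0.000220). Of the 5 members measured, 2 were called at E9, against 1.02% of all genes. These were Msx1 and Meox1, and the same 2 genes were called at E10 (2.3% of all genes) and over both ages (5.47%). The E9 call of Msx1 was lost without AVC E9 replicate 1 (log2 difference 1.99, limma adjusted p = 0.0508), whereas the E10 call held in all 23 alternative settings of the limma fit. With the spread taken from the groups compared and not shared between genes, Msx1 missed the threshold at both ages (adjusted p = 0.117 at E9 and 0.0787 at E10). In whole tissue, fewer cells of a type and less RNA per cell cannot be told apart.

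No test of age passed the threshold for Msx1. Its AVC arrays overlapped between E9 and E10 (log2 difference 0.20, 95% interval -0.36 to 0.76, limma adjusted p = 0.888). In the LV, every E10 array lay below every E9 array, and the level was 2.18-fold lower at E10 (1.47 to 3.22, limma adjusted p = 0.0559). Without LV E10 replicate 1, the highest of its group, the LV decline was a log2 difference of -1.32 and passed (limma adjusted p = 0.0153), and it also passed without AVC E9 replicate 2 (limma adjusted p = 0.0456). The mean of both Msx1 probes gave a smaller LV difference of -0.48 (limma adjusted p = 0.636). The tissue by age interaction of Msx1 was 1.32 on the log2 scale (0.53 to 2.12, limma adjusted p = 0.655), with 0 members called by limma against 0.0315% of all genes. At an unadjusted limma p under 0.05 there was 1 member, Msx1. The share of all genes at that level is not given here, nor beside later counts at an unadjusted p. In order of level, AVC E10 and AVC E9 did not differ beyond their spread, LV E9 followed, and LV E10 was lowest.

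**Figure D1:**
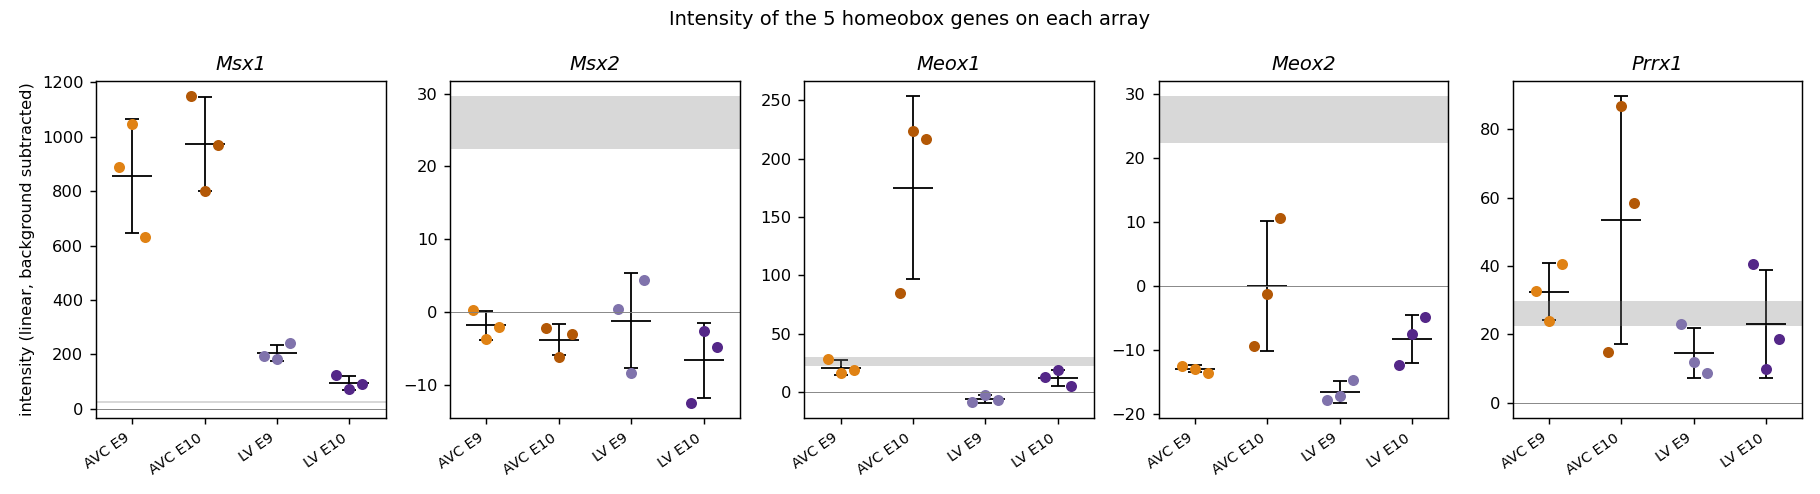
Intensity (linear, background subtracted) of the 5 measured homeobox genes on each array, 1 point per array with the mean and SD of each group of 3, on a separate axis per gene. The grey band spans the background limits of the 12 arrays, 22.4 to 29.6: Msx1 lay above it on every array, all 3 Meox1 arrays lay above it only in AVC E10, and Msx2 and Meox2 stayed below it.

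A second Msx1 probe (ILMN_1215278), annotated to a cDNA clone and not to the RefSeq mRNA, was near background and exceeded it on 3 of 12 arrays. It read 22.3, 22.4 and 29.5 in AVC E9 and 5.95, -3.17 and 14.3 in LV E9. In AVC E10 it read 26.2, 26.9 and 24.0, and in LV E10 4.98, 4.89 and 4.86. Although dim, this probe placed every AVC array above every LV array of the same age, as the bright probe did.

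Msx2, the paralogue with overlapping roles in cushion and limb mesenchyme, was below background on every array. Its single probe, annotated to a cDNA clone, ranged from -12.4 to 4.39. The arrays thus give no direction for Msx2, and the level of a probe that never passed background says nothing of the gene's transcripts outside the probe.

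Meox1 was above background mainly in the day 10 canal. Its single probe read 84.7, 223 and 217 in AVC E10 (175 ± 78.4, SD, n = 3), above background on 3 of 3 arrays. In LV E10 it read 12.5, 18.4 and 4.80 (11.9 ± 6.82, SD, n = 3), below background on every array. AVC E9 gave 28.0, 15.96 and 18.7 (20.9 ± 6.32, SD, n = 3), of which only replicate 1 passed its limit. In LV E9 the values were -8.96, -2.76 and -6.84, all below 0. The AVC E10 arrays lay above those of the other 3 groups without overlap.

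At E10, the Meox1 level of the AVC exceeded that of the LV at least 6.41-fold (limma adjusted p = 0.0130), the fold being a bound because no LV array passed background. Leaving out AVC E10 replicate 3 ended the call (log2 difference 3.73 in place of 3.95, limma adjusted p = 0.0572), as did fitting only the groups compared (limma adjusted p = 0.143). With the spread not shared between genes, the adjusted p was 0.198. At E9 the fit also called Meox1 higher in the AVC (limma adjusted p = 0.0143), but every LV E9 value had been raised to the floor of 1 before log2. With values under 16 set to 16, the E9 difference was 0.35 on the log2 scale (limma adjusted p = 1), and with values raised to each array's background limit it was -0.09 (limma adjusted p = 0.839). The E9 call thus rests on values below background, and the Meox1 call over both ages includes this difference.

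Between ages in the AVC, the Meox1 arrays of E10 lay above those of E9 without overlap (log2 difference 2.98 ± 0.53 SE, limma adjusted p = 0.0590). As 2 of the 3 AVC E9 arrays were below background, the size depends on such values, and it was 2.67 with values raised to the background limit. In this contrast limma called 0 members, against 0.551% of all genes. At an unadjusted p under 0.05, for which no share of all genes is given, there was 1 member, Meox1. With values under 16 set to 16 this difference passed (limma adjusted p = 0.0126), as it did with values raised to the limit (limma adjusted p = 0.000762) and without AVC E10 replicate 1 (limma adjusted p = 0.0190). In the LV, 1 member of 5 was called for age, against 2.37% of all genes. This was Meox1 (limma adjusted p = 0.0267), but both LV groups were below background, no fold is given, and the log2 difference fell to 0.07 with values under 16 set to 16. The tissue by age interaction of Meox1 moved with the floor in the same way, from -0.39 (limma adjusted p = 1) to 2.91 at a floor of 16 (limma adjusted p = 0.270).

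**Figure D2:**
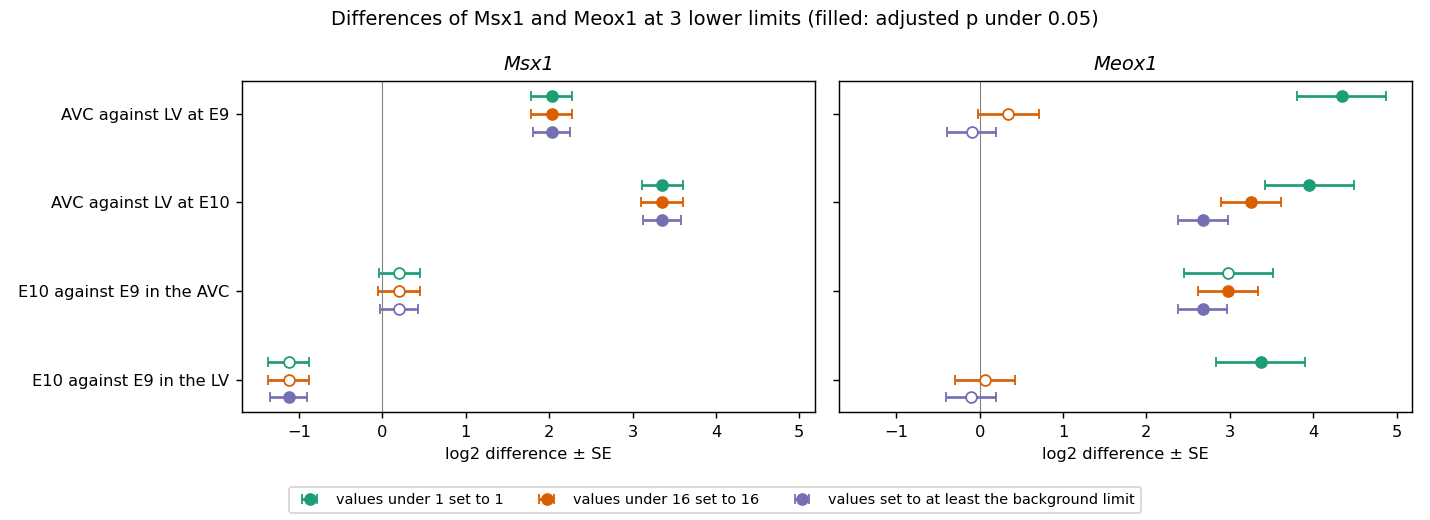
Log2 differences with SE of Msx1 (left) and Meox1 (right) in 4 contrasts, at 3 lower limits set before taking log2, filled where the adjusted p was under 0.05. The tissue differences of Msx1 stayed at 2.03 and 3.35, whereas the E9 difference of Meox1 went from 4.34 at a floor of 1 to -0.09 at the background limit.

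Meox2, the paralogue known from limb muscle and vessels, was below background throughout. Its probe ranged from -17.8 to 10.7 over the 12 arrays, and no fold is given.

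Prrx1 lay around the background limit and was not called in either tissue comparison. On its brightest probe (ILMN_2678094) it read 32.8, 24.0 and 40.5 in AVC E9 (32.4 ± 8.28, SD, n = 3), all above background, against 22.9, 11.96 and 8.74 in LV E9 (14.5 ± 7.42, SD, n = 3). In AVC E10 it read 14.9, 86.8 and 58.3 (53.3 ± 36.2, SD, n = 3), and in LV E10 40.5, 9.83 and 18.7 (23.0 ± 15.8, SD, n = 3). The E9 arrays of AVC and LV did not overlap and the E10 arrays did.

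The tissue difference of Prrx1 was 1.24 on the log2 scale at E9 (95% interval -0.45 to 2.93, limma adjusted p = 0.645) and 1.11 at E10 (-0.58 to 2.80, limma adjusted p = 0.594). Over both ages it was 1.18 (-0.02 to 2.37, limma adjusted p = 0.291). With array weights it was 1.65 (limma adjusted p = 0.0353), and without the 3 arrays closest to another group it was 1.92 (limma adjusted p = 0.0338). It was 0.53 with values raised to the background limit (limma adjusted p = 0.320) and 0.54 with the mean of all probes (limma adjusted p = 0.597). No LV E9 array passed background, and at E9 the difference fell to 0.81 with values under 16 set to 16 and to 0.24 with values raised to the limit. The size of the Prrx1 difference thus depends on values below background.

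The 6 probes of Prrx1 did not read alike. ILMN_2614463, annotated to another RefSeq transcript of the gene, read 12.1, 26.4 and 26.2 in AVC E9 and 2.13, 2.83 and 10.4 in LV E9. In AVC E10 it read 22.7, 52.3 and 49.3, and in LV E10 15.5, 11.5 and 10.5. On this probe the AVC arrays were above the LV arrays at both ages, though no LV array passed background. ILMN_1248338, annotated to a cDNA clone, overlapped between tissues at both ages, with its highest value, 65.4, in LV E10 replicate 1. The other 3 probes were above background on 0 of 12 arrays. Among them, ILMN_3134079 went the other way at E9, at 7.06 to 7.90 in AVC E9 and 7.91 to 13.8 in LV E9.

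**Figure D3:**
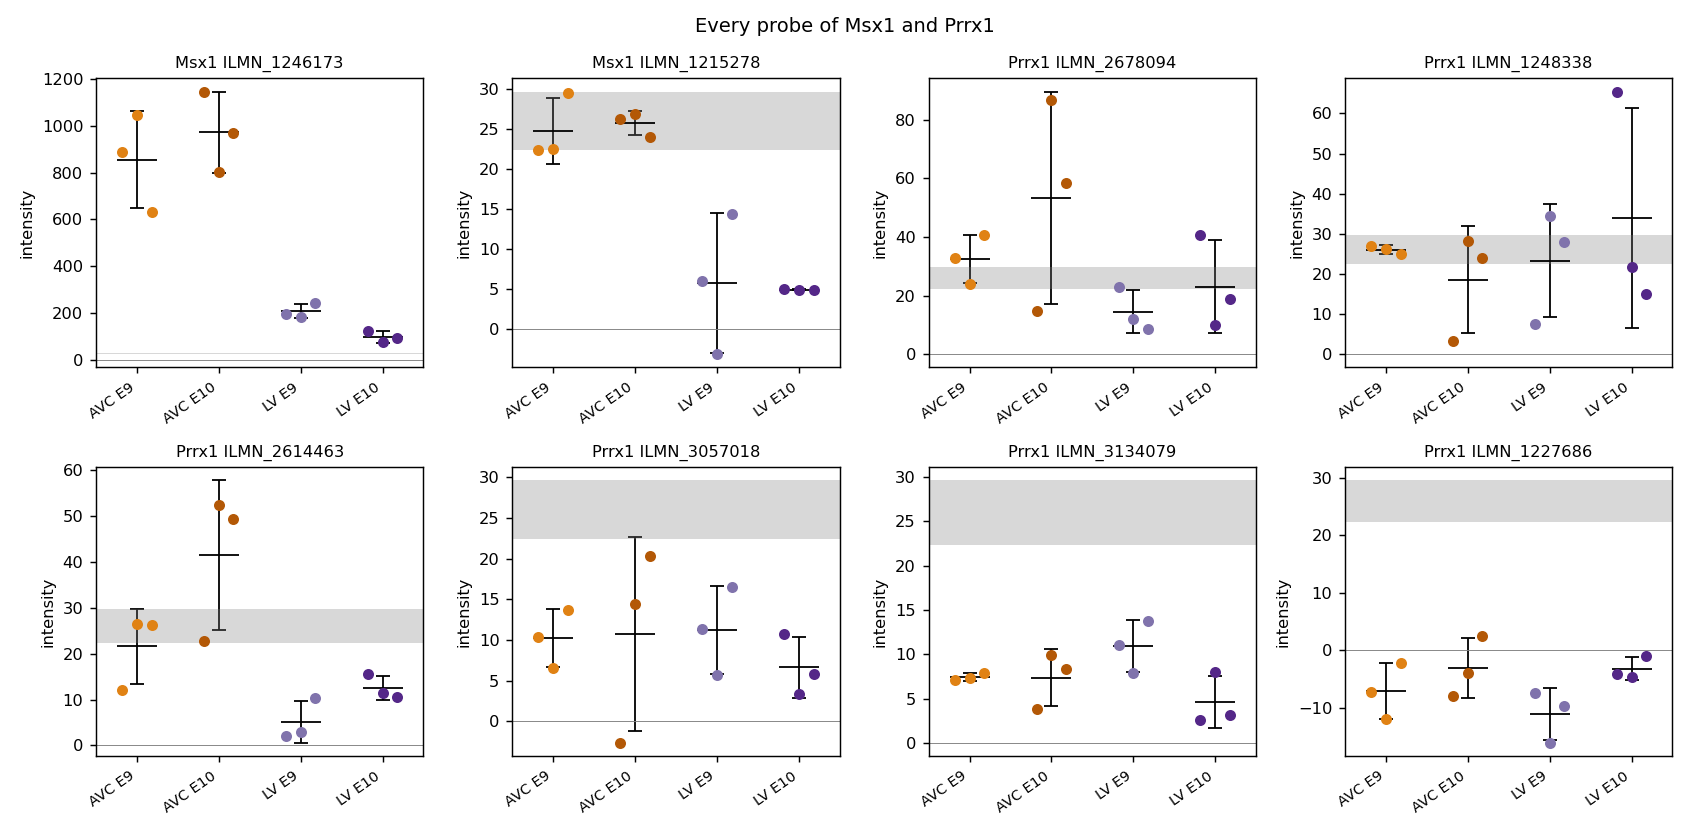
Intensity of every Msx1 and Prrx1 probe by group, 1 point per array with mean and SD, each on its own axis and with the grey band at the background limits of 22.4 to 29.6. Both Msx1 probes put the AVC above the LV, while the Prrx1 probes differ in whether the tissues overlap.

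AVC E10 replicate 1 had the lowest Meox1 and Prrx1 of its group and the highest Msx1. Shox2, a homeobox gene of the inflow tract, was like Meox1 and Prrx1 lowest on replicate 1, at 55.7 there and 549 and 553 on replicates 2 and 3. Sox10, a neural crest marker, read 20.2 on that replicate and 41.4 and 47.7 on the others, the latter pair being its only values above background on the 12 arrays. Tcf15, a somite marker, read -0.59 on that replicate and 26.5 and 26.3 on the others, of which only replicate 3 passed background. The split was not confined to somite and neural crest markers. Bmp4, of the BMP list, read 645 on that replicate and 1841 and 1513 on replicates 2 and 3. The part of these genes in the Meox1 and Prrx1 values was not tested.

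The genes of the BMP pathway and of canal identity, a list of 22 measured genes, were placed beside Msx1 as its known upstream pathway and companions. In AVC against LV, 5 of 22 were called higher at E9 and 0 lower, with a median log2 difference of 1.02 against 0 for all genes. At E10, 7 were called higher and 0 lower (median 0.99 against 0.07), and over both ages 12 higher and 0 lower (median 1.15 against 0.06). By age, limma called 0 of 22 in either tissue (at an unadjusted p under 0.05, 4 for the AVC and 6 for the LV). The ligand gene Bmp2 was near background, at 17.3 to 47.5 in AVC E9 (2 of 3 arrays above it) and 27.5 to 68.9 in AVC E10. It was below background on every LV array. The brighter ligand genes Bmp4, Bmp5 and Bmp7 were not called between tissues. At E9 their AVC and LV means were 1018 and 357 for Bmp4, 152 and 149 for Bmp5, and 726 and 746 for Bmp7. At E10 they were 1333 and 623, 79.4 and 72.8, and 512 and 769. Bmper, a secreted BMP modulator, was higher in the AVC by a log2 difference of 2.64 at E9 (limma adjusted p = 0.00593) and 3.39 at E10 (limma adjusted p = 0.00125). Id4, an inhibitor of helix-loop-helix factors that responds to BMP, was higher by 3.03 at E9 (limma adjusted p = 0.00152) and 2.19 at E10 (limma adjusted p = 0.00459).

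Of 20 cushion mesenchyme genes, 4 were called higher in the AVC at E9 and 6 at E10, 0 were called lower at either age, and the rest were not called. Their median log2 difference was 0.97 at E9 and 1.26 at E10, against 0 and 0.07 for all genes. Twist1, a transcription factor of mesenchyme, was higher by 1.61 at E9 (limma adjusted p = 0.0339) and 2.98 at E10 (limma adjusted p = 0.00267). The 2 genes called higher with age in the AVC were Papss2, whose product makes the donor of sulphate groups, at 2.55 (limma adjusted p = 0.0265), and the fibrillar collagen gene Col3a1, at 1.93 (limma adjusted p = 0.0353). The summed intensity of the list was 13433 to 16787 in AVC E9 and 21597 to 22753 in AVC E10, and in the LV it was 7434 to 9068 at E9 and 10593 to 11039 at E10.

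Among 17 other measured mesenchymal homeobox genes (20 listed), such as the Dlx and Alx genes, only Shox2 was called between tissues, at E10 (limma adjusted p = 0.0375). Its LV arrays were below background at both ages. The median log2 difference of this list was 0.26 at E9 and 0.23 at E10, and 9 of its genes were above background on no array.

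Markers of other tissues that express Meox or Prrx genes were read beside them. In the somite list, 9 of 13 genes, Pax1, Pax3 and Pax7 among them, were above background on no array, and Tcf15 was above it on 1. Its summed intensity was 421 to 630 in AVC E9, 991 to 1284 in AVC E10, 514 to 658 in LV E9 and 711 to 977 in LV E10, carried by Foxc1, Foxc2 and Scx, which other mesenchyme expresses too. Pax7 and Nkx3-2 were called lower in the AVC at E9, with all values below background. Of 7 measured neural crest genes, limma called 0 between tissues, with 0 at E9 and 2 at E10 at an unadjusted p under 0.05, and their summed intensity was 1355 to 1798 in AVC E9, 2033 to 3702 in AVC E10, 874 to 1671 in LV E9 and 3011 to 4063 in LV E10. Most of this sum was Ednrb, an endothelin receptor gene (mean 2655 in AVC E10 and 3559 in LV E10), whereas Sox10 had means of 36.4 in AVC E10 and 0.78 in LV E10.

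The summed level of epicardial markers was higher at E10 than at E9 in both tissues. Of the 8 measured, limma called 0 between tissues, with 2 at E9 and 0 at E10 at an unadjusted p under 0.05, while 1 was called higher with age in the AVC and 2 in the LV. Their summed intensity was 776 to 1161 in AVC E9 and 5203 to 5606 in AVC E10, and 553 to 1207 in LV E9 and 3078 to 6940 in LV E10. Meox1 passed background on all 3 arrays only in AVC E10. Myocardial genes, all 11 above background on every array, summed to 134606 to 157124 in the AVC and 167016 to 184532 in the LV. Between tissues at E10, limma called 1 of 10 endocardial genes, 0 of 6 second heart field genes and 0 of 7 erythroid genes, with 4, 1 and 0 at an unadjusted p under 0.05. At E9 it called 0 in each of these lists, with 6, 1 and 1 at an unadjusted p under 0.05. The second heart field sum was higher in the AVC at both ages. It was 278 to 497 in AVC E9, 155 to 251 in LV E9, 140 to 305 in AVC E10 and 8.79 to 112 in LV E10. The part of these lists in the values of Msx1, Meox1 and Prrx1 was not tested.

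**Figure D4:**
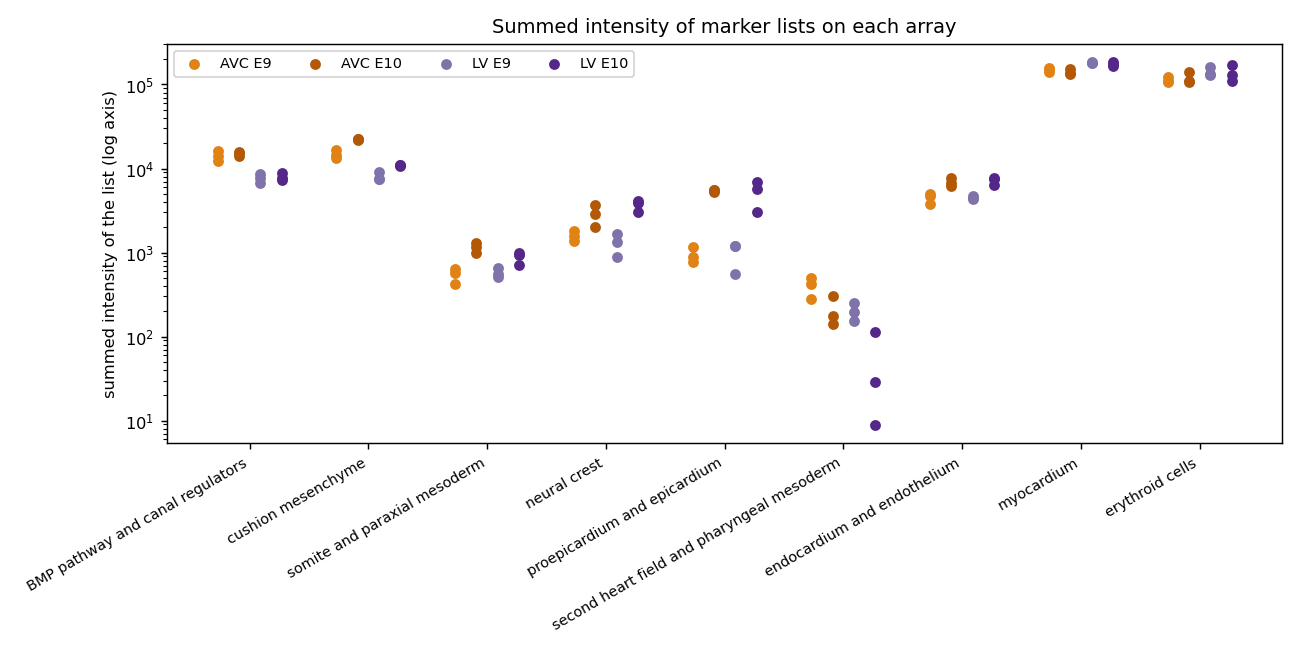
Summed intensity (log axis) of 9 gene lists on each of the 12 arrays, 1 point per array coloured by group. The summed intensities of the BMP and canal list and of the cushion mesenchyme list are higher on the AVC arrays, while the epicardial sum is higher at E10 in both tissues.

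The genes whose pattern over the 12 arrays was most like that of each member were ranked by the root mean square difference of log2 values, with each gene's own mean subtracted and values below background raised to the limit, among 9930 genes. For Msx1 these were Bmper (0.32), Chit1 (0.45), Gata3 (0.50), Shisa2 (0.51) and Tbx2 (0.53), against a median of 1.40 for all genes. Bmper, the closest, read 740, 625 and 486 in AVC E9, 110, 72.9 and 115 in LV E9, 924, 502 and 632 in AVC E10, and 66.4, 58.4 and 65.7 in LV E10. Like Msx1, it was highest in AVC E10 on replicate 1.

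For Meox1 the closest were Pde1a (0.29), Eln (0.31), Aqp1 (0.34), Dnm3os (0.35) and Chst3 (0.35), against a median of 1.21. Mean intensity of Eln, which encodes elastin, was 105 in AVC E10 and 4.57 to 11.6 in the other groups. For Prrx1 they were Pcdh17 (0.28), Osr1 (0.28), Rprml (0.28), Pik3cg (0.29) and Gng8 (0.30), against a median of 0.66, and the group means of these 5 genes lay between 2.57 and 77.3. Meox1 passed background on only 4 of the 12 arrays and the Prrx1 probe on 6, and elsewhere their values are the limit itself. Genes also below background on those arrays follow the same limits by construction. The small distances of Meox1 and Prrx1 thus rest partly on this shared floor. The arrays also share tissue and processing, so the distances are a description.

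**Figure D5:**
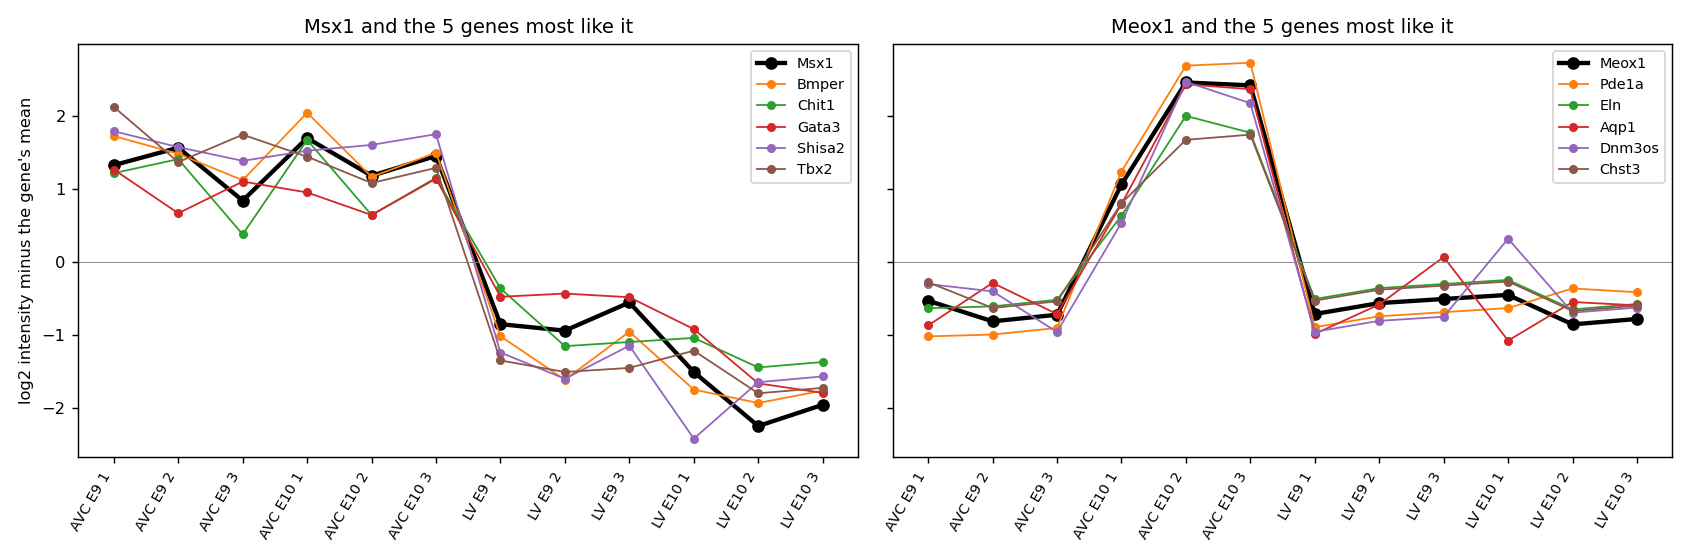
Log2 intensity minus each gene's own mean on the 12 arrays, values below background raised to the limit, for Msx1 (left) and Meox1 (right) with the 5 genes most like each; lines only join the points of a gene. The Msx1 group is high on all 6 AVC arrays, and the Meox1 group is high on the 3 AVC E10 arrays, lower on replicate 1 than on the other two.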

How the data were processed

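RNA of 12 samples in 4 groups of 3 was profiled on Illumina bead arrays. The values deposited by the authors are intensities on a linear scale, background subtracted and with the same mean of 386 on every array. The sources used here do not name the program behind these values, and the authors compared groups in GeneSpring GX. No columns of other series were used (0 found).

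Of 45281 probes, 34885 had 1 gene symbol. Each of the 19057 genes was read from its probe with the highest mean. Values under 1 were set to 1 before log2, which applied to 36.8% of values. A gene was above background on an array where its value exceeded the size of the array's most negative value. Where a gene passed on all arrays of a group and on none of the other, the fold is a bound: the bright group's mean against, per array, the higher of the lowest signal above background and the gene's own value.

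The 4 groups were fitted together with limma 3.58.1 in R 4.3.3, and there were 6 contrasts. P-values are two-sided, Benjamini-Hochberg adjusted over the 19057 genes, and genes were called where adjusted p was under 0.05. The fits were tested on simulated data. The number of arrays limits the precision.

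The members and the gene lists were chosen with earlier results of these data known. All members are named, with at most the 4 called genes of a list with the largest differences, defining markers of other cell types, and the 5 genes most like each member above background. Alternatives covered the floor, normalization, filter, probe choice, variance model, array weights, groups fitted, replicate block, left-out arrays and the methods' t-test. The sources used here do not say whether replicate numbers pair the samples. Over 18 pairs of arrays with the same number, correlations of deviations from the group means ran from -0.37 to 0.52, and 9 were over 0.1. Arrays with different numbers were not compared in this way, so these correlations cannot decide it.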

Additional observations from a re-analysis of the deposited data

How the results depend on the processing

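Msx1 in AVC against LV at E10 kept its call in all 23 alternatives of the limma fit (log2 difference 2.87 to 3.56), though not by the t-test after Benjamini-Hochberg (adjusted p = 0.0787). Over both ages it kept its call in all 22 (2.49 to 2.79). Meox1 did so too (1.29 to 4.53), but its average includes the E9 difference, which rests on values below background. At the background limit the Meox1 difference was -0.09 at E9, 2.68 at E10 and 1.29 over both ages. At E9 the members called fell from 2 to 1 at either higher floor, with only the 2 groups compared, with the mean of all probes and with the methods' t-test after Benjamini-Hochberg, and ran from 0 to 2 with an array left out, 0 being without AVC E9 replicate 1. At E10 they fell from 2 to 1 with only the 2 groups compared and to 0 with the t-test after Benjamini-Hochberg, and ran from 1 to 2 with an array left out, 1 being without AVC E10 replicate 3. For age in the AVC, 1 member (Meox1) in place of 0 was called at both floors, with the above-background filter, with array weights, with the t-test at the methods' thresholds and without the 3 arrays closest to another group (an alternative chosen after seeing the data), and 0 to 1 with an array left out (1 without AVC E10 replicate 1 or LV E10 replicate 3). For age in the LV, 0 in place of 1 were called at a floor of 16, with only the 2 groups and with the t-test after Benjamini-Hochberg, and 2 with the filter, with weights and without the 3 arrays. At the background limit the count stayed at 1, but the member called was Msx1 (-1.12, adjusted p = 0.0175, limma) in place of Meox1. With an array left out, 0 to 2 were called, 0 without LV E10 replicate 2 or any LV E9 replicate and 2 without AVC E9 replicate 2 or LV E10 replicate 1.

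The Msx1 difference at E9 missed the threshold with only the 2 groups (2.03, adjusted p = 0.0734, limma) and with the mean of probes (2.25, adjusted p = 0.0624), and was 1.87 to 2.23 with an array left out. That of Meox1 at E9 was 0.35 at a floor of 16, -0.095 at the background limit, and 4.11 to 4.52 with an array left out (4.11 without AVC E9 replicate 1, adjusted p = 0.0521). At E10 Meox1 missed it with only the 2 groups (3.95, adjusted p = 0.143), and was 3.40 to 4.41 with an array left out. Signs turned for Meox1 by age in the LV (-0.10 at the background limit), for the Meox1 interaction (2.91 and 2.78 at the higher floors, 0.033 without the 3 arrays, -0.95 to 0.068 with an array left out) and for Msx1 by age in the AVC (-0.0017 to 0.36 with an array left out, the lowest without AVC E9 replicate 3). Beyond the floors, which alter values below background by construction, the cause was not tested.

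The replicate block changed no member call (Meox1 at E9 4.34, adjusted p = 0.0371, limma), and whether these numbers pair the samples is not known. Over all alternatives, genes called ran from 54 to 636 at E9 (195 as reported), 10 to 2143 at E10 (438), 567 to 2619 over both ages (1042), 13 to 2050 for age in the AVC (105), 26 to 3997 for age in the LV (452) and 0 to 163 for the interaction (6). Signal over background limits Msx2 and Meox2 in every group, Meox1 outside AVC E10 and Prrx1 outside AVC E9.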
